A study of Mus musculus with 63 samples.

Results

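The miR-132 and miR-212 cluster is a pair of neighbouring miRNA hairpins whose 4 mature arms, mmu-miR-132-3p, mmu-miR-132-5p, mmu-miR-212-3p and mmu-miR-212-5p, were followed across 4 kidney cell types in injury and repair. The members were chosen by name from a table of raw sRNA-Seq counts, and make up 4 of its 2110 loci of mature miRNAs. The libraries came from male C57BL/6 mice aged 8 to 12 weeks, with no treatment named other than surgery. Of 16 mice, 4 had a sham operation, 4 had unilateral ureteric obstruction for 2 days (UUO-2), 4 had obstruction for 7 days (UUO-7), and 4 had 7 days of obstruction followed by reimplantation of the ureter and 14 days of recovery (R-UUO). Each kidney was digested and sorted into endothelial cells (ECs, CD31+), macrophages (Macs, F4/80hi), proximal tubular cells (PT cells, binding the lectin LTL) and PDGFR-β+ cells, a gate that takes pericytes and fibroblasts. This gave 63 libraries, 4 for every group except the PDGFR-β+ cells of UUO-7, with 3. A sorted population is measured in bulk, so more expressing cells and more RNA per cell cannot be told apart.

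A miRNA hairpin is cut into a 5p and a 3p arm, either of which can be loaded into an Argonaute protein and pair through its seed with target mRNAs. The miR-132 and miR-212 hairpins are made from a shared primary transcript, which the transcription factor CREB is known to induce in neurons after synaptic activity. Outside the nervous system the cluster is known from immune cells, cardiac muscle and vascular cells, where inflammatory or hypertrophic stimuli raise it.

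The mature sequences are shown because the arms share part of their targeting code. They are the RefSeq entries for GRCm38.p6, which lie at the same coordinates as the counted loci, with the seed (bases 2 to 8) in capitals.
mmu-miR-132-3p: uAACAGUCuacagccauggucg
mmu-miR-212-3p: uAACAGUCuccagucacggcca
mmu-miR-132-5p: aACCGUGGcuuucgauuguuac
mmu-miR-212-5p: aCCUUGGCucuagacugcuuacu
Both 3p arms carried the seed AACAGUC, which no other of 1679 mature mouse names in RefSeq had, so they form 1 seed group. Their first 9 bases were the same and 17 of 22 positions were identical, with differences from miR-132-3p to miR-212-3p at A10C, C14U, U17C, U20C and G22A, counted from the 5′ end. The 5p arms had a seed each that no other name shared.

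On chromosome 11 of GRCm38, plus strand, miR-212-5p lies at chr11:75173403-75173425, miR-212-3p at chr11:75173443-75173464, miR-132-5p at chr11:75173686-75173707 and miR-132-3p at chr11:75173723-75173744. The hairpins Mir212 (91 bases) and Mir132 (66 bases) are 203 bases apart, and are shown with their mature arms in capitals.
Mir212: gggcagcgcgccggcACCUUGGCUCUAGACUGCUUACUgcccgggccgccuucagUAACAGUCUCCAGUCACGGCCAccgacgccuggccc
Mir132: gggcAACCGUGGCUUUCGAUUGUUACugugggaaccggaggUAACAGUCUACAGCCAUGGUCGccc
Both hairpins lie in an intron of the noncoding gene 1700016P03Rik, on the same strand and outside its 3 exons. No other counted locus overlapped a member and each name had 1 locus. The mismatches allowed in alignment and the placement of reads with several matches are not given in the sources used here, so how far reads of the 3p arms were kept apart is not known.

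Total counts per library ran from 616565 to 10819385, with a median of 7577134.5 for ECs, 3018038.5 for Macs, 4263852 for PDGFR-β+ cells and 1043053.5 for PT cells. Each population was highest for the markers of its own type. The summed level of miR-126a arms was 93099 to 173192 CPM (read counts scaled to a common depth, here with TMM factors) in ECs and at most 3524 elsewhere. The miR-142a and miR-223 sum was 14705 to 41968 CPM in Macs and at most 698 elsewhere, and the sum of miR-192, miR-194 and miR-215 was 16093 to 130314 CPM in PT cells and at most 5217 elsewhere. The sum of miR-143, miR-145a, miR-199a and miR-214, markers of mural cells and fibroblasts, was 92519 to 400902 CPM in PDGFR-β+ cells and at most 46035 elsewhere. TMM factors differed by cell type, 0.471 to 0.769 in ECs against 1.37 to 2.01 in Macs, so levels set side by side across cell types rest on the scaling. All 4 members had counts in 16 of 16 EC, 15 of 16 Mac, 7 of 16 PT and 15 of 15 PDGFR-β+ libraries.

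miR-132-3p was the most abundant member, and PDGFR-β+ cells held the most of it in every condition. Its level in PDGFR-β+ cells was 128 ± 42.4 CPM in sham (mean ± SD, n = 4), 290 ± 31.5 in UUO-2, 512 ± 64.5 in UUO-7 (n = 3) and 595 ± 163 in R-UUO. In ECs it was 64.1 ± 6.88 CPM in sham, 91.1 ± 10.1 in UUO-2, 94.2 ± 18.1 in UUO-7 and 84.4 ± 12.9 in R-UUO. Macs had 4.78 ± 3.35 CPM in sham and PT cells 8.22 ± 3.54, below the EC and PDGFR-β+ libraries without overlap. After injury, Macs were at 35.9 ± 4.59 (UUO-2), 55.2 ± 11 (UUO-7) and 66.8 ± 11.8 CPM (R-UUO). PT cells were at 33.2 ± 4.39, 40.3 ± 7.90 and 19.4 ± 2.91 CPM in the same order.

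**Figure D1:**
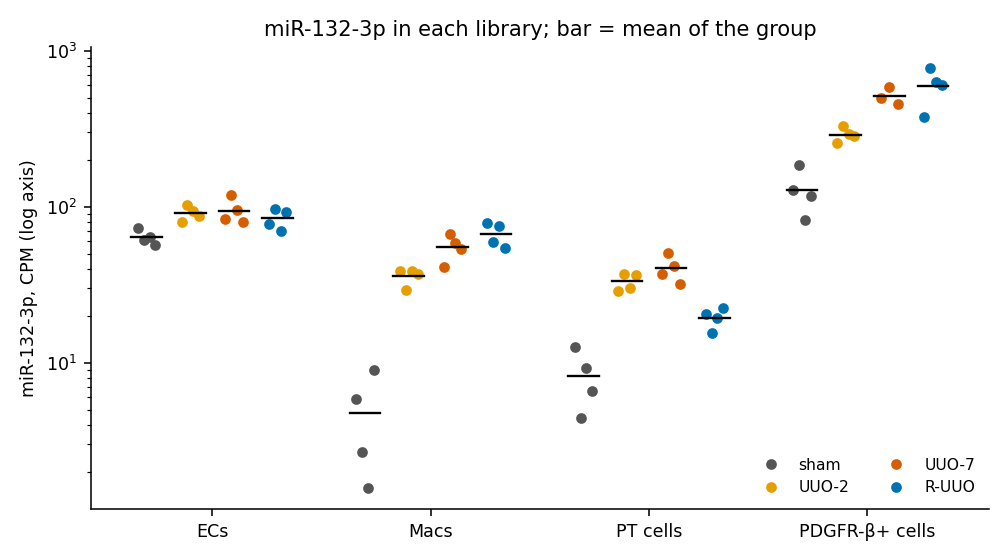
miR-132-3p in CPM (TMM-scaled, log axis) for each of the 63 libraries, by cell type and condition, with the bar at the group mean. The sham libraries of Macs (1.57 to 9.0 CPM) lie below all other Mac libraries (29.1 to 78.5 CPM), and PDGFR-β+ cells are the highest type in each condition.

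In the edgeR quasi-likelihood fit over all 63 libraries, neighbours in this order were compared, with a call at a false discovery rate (FDR) below 0.05 and a fold change above 1.5. In sham the order was PDGFR-β+ cells, ECs, PT cells and Macs. ECs were below PDGFR-β+ cells by a log2 difference of -1.0 ± 0.25 (SE, FDR = 0.00107), and 3 of 4 members were called in this pair, where 38.7% of 671 loci were called. miR-212-5p was not called there (-0.94, FDR = 0.0573), but was with the mouse as a block (-1.03, FDR = 0.0447), and miR-132-5p was called without the block (FDR = 0.0347) and not with it (FDR = 0.0528). Leaving out sham replicate 3 moved miR-132-5p in this pair from -1.23 to -0.25, and that library held the highest PDGFR-β+ sham level of it. ECs were above PT cells in sham by 2.94 ± 0.30 for miR-132-3p (FDR = 2.36e-12), and all 4 members were called where 56.9% of loci were, miR-212-5p against PT libraries that all had a count of 0. The PT sham libraries had at most 1 count of miR-132-5p and at most 7 of miR-212-3p, so those calls rest on few counts too. The call of miR-212-3p in this pair was lost with library size as the only scaling (1.05, FDR = 0.12). Macs were below PT cells in sham for miR-132-3p by -0.75 ± 0.32 (FDR = 0.0452), 1 of 4 members called where 52.2% of loci were. This call rested on few counts, 7 to 54 per Mac library and 4 to 14 per PT library, and was not made without sham replicate 1 (-0.60) or 3 (-0.40).

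After injury the order became PDGFR-β+ cells, ECs, Macs and PT cells. All 4 members were lower in ECs than in PDGFR-β+ cells in UUO-2, UUO-7 and R-UUO, with backgrounds of 28.8%, 39.9% and 30.4% of loci called. For miR-132-3p this gap was -1.67 ± 0.25, -2.44 ± 0.27 and -2.82 ± 0.26 on the log2 scale. ECs were above Macs for miR-132-3p in UUO-2 (1.34 ± 0.25, FDR = 7.93e-06, 1 of 4 members, background 55.7%) and UUO-7 (0.77 ± 0.25, FDR = 0.00739, 1 of 4, background 54.2%), but not in R-UUO (0.34 ± 0.25, FDR = 0.267, 0 of 4, background 52.2%), and with library size as the only scaling Macs were called above ECs in UUO-7 (-0.69) and R-UUO (-0.94), with UUO-2 at -0.061 and not called (FDR = 0.857). The UUO-7 call of this pair was also lost without UUO-7 replicate 2 (0.40), 3 (0.39) or 5 (0.56). Macs and PT cells were not called different for miR-132-3p in UUO-2 (0.11 ± 0.26, FDR = 0.736, 2 of 4 members called, background 51.7%) or UUO-7 (0.45 ± 0.25, FDR = 0.136, 3 of 4 members, background 47.2%), although library size alone gave 0.78 and 1.27, both called. Macs were above PT cells in R-UUO by 1.79 ± 0.28 (FDR = 1.71e-07, 4 of 4 members, background 47.4%). The other 3 members failed the count filter within PT cells, so their calls in these pairs rest on few PT counts. In R-UUO they had at most 2 (miR-132-5p), 7 (miR-212-3p) and 3 (miR-212-5p) counts per PT library.

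In Macs, all 4 members were much higher in obstructed and reversed kidneys than in sham. miR-132-3p was at 5.86, 2.69, 1.57 and 9.0 CPM in the sham libraries, 38.8, 29.1, 38.7 and 36.9 in UUO-2, 41.0, 67.3, 58.6 and 53.8 in UUO-7, and 78.5, 59.6, 75.0 and 54.2 in R-UUO. No sham library reached any injured one. miR-212-3p, the other arm with the AACAGUC seed, was at 0.759, 0.598, 0 and 1.59 CPM in sham and at 9.21, 11.6, 9.42 and 6.33 in UUO-2. Its levels were then 7.2, 20.1, 13.5 and 15.2 CPM in UUO-7 and 14.1, 17.2, 10.0 and 11.2 in R-UUO, again without overlap with sham. Of the 5p arms, miR-132-5p went from at most 0.530 CPM in sham to 1.12 to 3.69 in UUO-2, 1.88 to 5.01 in UUO-7 and 3.91 to 5.00 in R-UUO. miR-212-5p went from at most 0.530 CPM to 1.97 to 3.91, 2.65 to 5.54 and 5.44 to 10.1. Sham replicate 3 had no count of these 3 members, which allows up to 3 counts, or 0.673 CPM at its depth.

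Within the 16 Mac libraries, UUO-2 against sham gave log2 changes of 3.05 ± 0.33 for miR-132-3p (FDR = 2.98e-06), 3.27 ± 0.57 for miR-132-5p (FDR = 0.000263), 3.72 ± 0.47 for miR-212-3p (FDR = 1.55e-05) and 3.93 ± 0.56 for miR-212-5p (FDR = 3.79e-05), so that 4 of 4 rose where 18.4% of 457 loci did. UUO-7 against sham gave 3.63 to 4.32, 4 of 4 higher where 26.3% of loci were, and R-UUO against sham gave 3.82 to 5.11, 4 of 4 higher where 21.4% were. Neither later step was called. UUO-7 against UUO-2 had 0 of 4 members higher (background 16.2%), with miR-132-3p at 0.59 ± 0.30 (FDR = 0.135). Its UUO-7 libraries all lay above its UUO-2 libraries with TMM. With library size only they overlapped, UUO-7 starting at 72.8 CPM and UUO-2 reaching 75.0. R-UUO against UUO-7 had 0 of 4 higher (background 12.7%), with miR-212-5p at 0.80 ± 0.39 (FDR = 0.139). None of these 8 values had an unadjusted p under 0.05 in edgeR over all 4 groups, and DESeq2 called none of them. A fit to UUO-7 and UUO-2 alone called miR-132-3p (0.59, FDR = 0.0153).

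Mural cell markers in the Mac gate were measured beside this result. Their sum was 1994 to 4986 CPM in sham, 4386 to 5304 in UUO-2, 3144 to 4616 in UUO-7 and 6781 to 9590 in R-UUO, so sham and UUO-7 overlapped. Single markers in the sum changed unequally. miR-214-3p was higher against sham by 3.82 ± 0.27 in UUO-7 (FDR = 1.18e-08) and by 3.83 ± 0.27 in R-UUO (FDR = 6.8e-09), and miR-199a-3p at its chromosome 1 locus by 1.91 ± 0.21 and 3.18 ± 0.22. miR-143-3p was at 0.072 ± 0.23 in UUO-7 (FDR = 0.813) and rose by 1.08 ± 0.23 in R-UUO (FDR = 0.00126). Per 1000 counts of the mural markers, Mac libraries held 0.351 to 2.48 counts of miR-132-3p in sham, 5.49 to 8.82 in UUO-2, 11.7 to 21.4 in UUO-7 and 6.21 to 11.1 in R-UUO. PDGFR-β+ libraries themselves held 0.251 to 0.462, 0.726 to 1.26, 3.09 to 3.40 and 3.87 to 4.83, fewer than Macs in each injured condition. The part of mural cells and fibroblasts in the Mac result was not tested.

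In PDGFR-β+ cells 3 of 4 members rose by day 2 and again between days 2 and 7, from a higher starting level than in Macs. miR-132-3p was at 128, 184, 82.0 and 117 CPM in sham, 255, 331, 291 and 284 in UUO-2, 495, 583 and 457 in UUO-7, and 378, 771, 630 and 602 in R-UUO. Sham, UUO-2 and UUO-7 did not overlap, while R-UUO spanned the UUO-7 range. miR-212-3p was at 21.1, 26.0, 27.8 and 14.9 CPM in sham, 61.8, 80.6, 90.6 and 62.1 in UUO-2, 148, 211 and 147 in UUO-7, and 69.3, 189, 142 and 164 in R-UUO. Its mean was highest in UUO-7 (169 CPM, against 141 in R-UUO), and R-UUO reached into the UUO-2 range. R-UUO replicate 1 was the lowest R-UUO library for all 4 members. miR-212-5p was at 2.83 to 6.36 CPM in sham, 12 to 33.9 in UUO-2, 52.7 to 61.8 in UUO-7 and 51.0 to 93.7 in R-UUO. miR-132-5p was at 2.88, 5.25, 17.0 and 4.82 CPM in sham and 18.3, 22.3, 21.1 and 10.5 in UUO-2, and this was the member whose sham and UUO-2 libraries overlapped. It then lay at 29.9 to 40.8 CPM in UUO-7 and 17.3 to 47.4 in R-UUO.

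UUO-2 against sham called 3 of 4 members higher, where 5.66% of 477 loci were. The log2 changes were 1.2 ± 0.24 for miR-132-3p (FDR = 0.00472), 1.76 ± 0.29 for miR-212-3p (FDR = 0.00103) and 1.93 ± 0.35 for miR-212-5p (FDR = 0.00207). miR-132-5p was not called (1.39 ± 0.47, FDR = 0.0905), and was without sham replicate 3 (2.08, FDR = 0.00471). UUO-7 against sham called 4 of 4 higher, with 34% of loci higher, at 1.93 ± 0.26 for miR-132-3p, 2.20 ± 0.49 for miR-132-5p, 2.86 ± 0.31 for miR-212-3p and 3.48 ± 0.37 for miR-212-5p. R-UUO against sham called 4 of 4, with 27.9% of loci higher, at 2.13 to 3.70. UUO-7 against UUO-2 called 3 of 4 higher where 23.5% of loci were, at 1.1 ± 0.30 for miR-212-3p (FDR = 0.00915), 1.55 ± 0.34 for miR-212-5p (FDR = 0.00241) and 0.73 ± 0.26 for miR-132-3p (FDR = 0.037). The last call was lost on leaving out any of 6 of the 7 libraries compared, with changes of 0.61 to 0.79, and so was that of miR-212-3p without UUO-7 replicate 4 (0.90, FDR = 0.0525). R-UUO against UUO-7 called 0 of 4 (background 3.14%), with changes of -0.28 to 0.22 and no unadjusted p under 0.05.

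The level of all loci also moved in these cells. The median log2 change over all 477 loci was 0.50 in UUO-7 against sham, and 1.02 with library size as the only scaling. Relative to that median, miR-132-3p changed by 1.43 with TMM and by 1.46 with library size only. In UUO-7 against UUO-2 the median of all loci moved by 0.38 with TMM and 0.92 with library size only, and miR-132-3p changed by 0.35 relative to it under either scaling. Leukocyte markers in the PDGFR-β+ gate summed to 53.0 to 171 CPM in sham, 283 to 329 in UUO-2, 273 to 698 in UUO-7 and 121 to 205 in R-UUO, and their part in the members' changes was not tested. The mural marker sum itself was lower after injury, 326479 to 398350 CPM in sham against 145413 to 174163 in UUO-7 and 92519 to 159563 in R-UUO. Its members moved in opposite directions. In UUO-7 against sham miR-143-3p fell by 1.48 ± 0.24 (FDR = 9.32e-05) and miR-145a-5p by 1.28 ± 0.35 (FDR = 0.00624), while miR-214-3p rose by 3.06 ± 0.16 (FDR = 5.91e-10). At the chromosome 1 locus miR-199a-5p rose by 2.39 ± 0.14 (FDR = 2.18e-09) and miR-199a-3p by 2.09 ± 0.18 (FDR = 3.33e-07). Their part in the members' changes was not tested.

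In PT cells, miR-132-3p was the member deep enough to test. It was at 12.6, 4.43, 9.24 and 6.56 CPM in sham, 28.8, 37.3, 30.1 and 36.6 in UUO-2, 37.2, 50.4, 42.0 and 31.8 in UUO-7, and 20.4, 15.6, 19.3 and 22.5 in R-UUO. With TMM, sham lay below all injured libraries, and R-UUO lay between sham and both obstruction times without overlap. With library size only, sham (6.42 to 19.3 CPM) and R-UUO (10.6 to 28.3 CPM) overlapped. The change was 1.93 ± 0.30 in UUO-2 against sham (FDR = 0.000556), 1 of 1 tested member higher where 14.8% of 330 loci were, and 2.17 ± 0.30 in UUO-7 against sham (FDR = 5.88e-05), 1 of 1 where 25.5% were. UUO-7 against UUO-2 gave 0.24 ± 0.27 (FDR = 0.625, 0 of 1, background 2.73%). R-UUO against UUO-7 gave -0.99 ± 0.28 (FDR = 0.0611, 0 of 1 higher, background 0.606%), which edgeR did not call and DESeq2 did (FDR = 0.00478). By signed change it ranked 325 of 330 loci there. R-UUO against sham was still higher by 1.18 ± 0.31 (FDR = 0.00711, 1 of 1, background 25.8%), a call lost with library size as the only scaling (0.70, FDR = 0.157). Relative to the median of all loci the change was 1.15 with TMM and 1.12 with library size only.

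The other members were near the limit of detection in PT cells. miR-212-3p had 0 to 7 counts per sham library, 6 to 17 in UUO-2, 4 to 27 in UUO-7 and 0 to 7 in R-UUO. miR-212-5p had no count in any sham library and at most 6 in any other, and miR-132-5p at most 7 in any library. With no filter on low counts all 3 could be fitted, and none was called in any comparison. Mural markers in the PT gate were also higher after injury, with a sum of 1617 to 3496 CPM in sham, where 5 of 7 of their loci had counts. The sum was 6672 to 10151 CPM in UUO-2, 7031 to 18215 in UUO-7 and 3825 to 25839 in R-UUO. The median of the sum was 2450 CPM in sham, 7469 in UUO-2, 7967 in UUO-7 and 5209 in R-UUO. Per 1000 counts of these markers, miR-132-3p was at 1.80 to 4.06 counts in sham, 2.97 to 4.99 in UUO-2, 2.31 to 6.76 in UUO-7 and 0.791 to 4.92 in R-UUO, ranges that overlap. The leukocyte marker sum went from 73.2 to 106 CPM in sham to 139 to 236 in UUO-2. The part of other cells in the PT result was not tested.

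By size, the changes were smallest in ECs. miR-132-3p was at 73.4, 61.7, 64.4 and 57.0 CPM in sham, 79.5, 103, 94.5 and 87.3 in UUO-2, 83.1, 119, 95.0 and 79.4 in UUO-7, and 77.2, 97.4, 70.1 and 92.9 in R-UUO. With TMM, both obstruction groups lay above all sham libraries, and R-UUO overlapped sham. With library size only, UUO-7 (from 48.5 CPM) also overlapped sham (up to 50.1 CPM). UUO-2 against sham gave 0.66 ± 0.17 (FDR = 0.0505), and 0 of 4 members were called, where 1.49% of 469 loci were higher. At an unadjusted p under 0.05, 3 of 4 members passed, but the share of all loci at that looser threshold was not counted. DESeq2 called miR-132-3p (FDR = 0.00393). UUO-7 against sham called miR-132-3p at 0.67 ± 0.17 (FDR = 0.0127), 1 of 4 members, where 6.18% of loci were higher. That call was lost with library size as the only scaling (0.52, FDR = 0.114). miR-212-3p, at 7.80 to 11.2 CPM in sham and 9.02 to 22.9 in UUO-7, missed the threshold there (0.94 ± 0.31, FDR = 0.0501). It was called with DESeq2 size factors (FDR = 0.0428), the DESeq2 test (FDR = 0.0143), no filter (FDR = 0.0196) and a fit to the compared groups alone (FDR = 0.0294).

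UUO-7 against UUO-2 and R-UUO against UUO-7 each called 0 of 4 members in ECs, with backgrounds of 1.49% and 0.853% and no member at an unadjusted p under 0.05. In R-UUO against sham, where 11.7% of loci were higher, miR-212-5p was called (1.22 ± 0.38, FDR = 0.0291), 1 of 4 members. Its levels overlapped, at 1.55, 1.35, 3.22 and 4.18 CPM in sham and 4.31, 6.19, 2.70 and 8.45 in R-UUO, and the call was lost without sham replicate 1 (1.11), sham replicate 2 (1.06) or R-UUO replicate 5 (1.01). It was also lost with library size as the only scaling (0.96, FDR = 0.0998), with the replicate block (1.2, FDR = 0.0755) and in a fit to the compared groups alone (1.22, FDR = 0.103). miR-132-3p had an FDR of 0.038 in this comparison at a fold of 1.41, under the required 1.5. miR-132-5p stayed between 1.38 and 7.47 CPM in all EC libraries and was not called in any comparison of conditions. Without sham replicate 4 it was called against sham in UUO-7 (1.40, FDR = 0.0339, from 0.77 with all libraries) and R-UUO (1.33, FDR = 0.0302, from 0.73), and miR-212-3p (1.16) and miR-212-5p (1.34) were called in UUO-7. Leukocyte markers in the EC gate summed to 20.1 to 60.2 CPM in sham, 58.4 to 124 in UUO-2, 110 to 193 in UUO-7 and 89.4 to 131.7 in R-UUO, and their part was not tested.

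**Figure D2:**
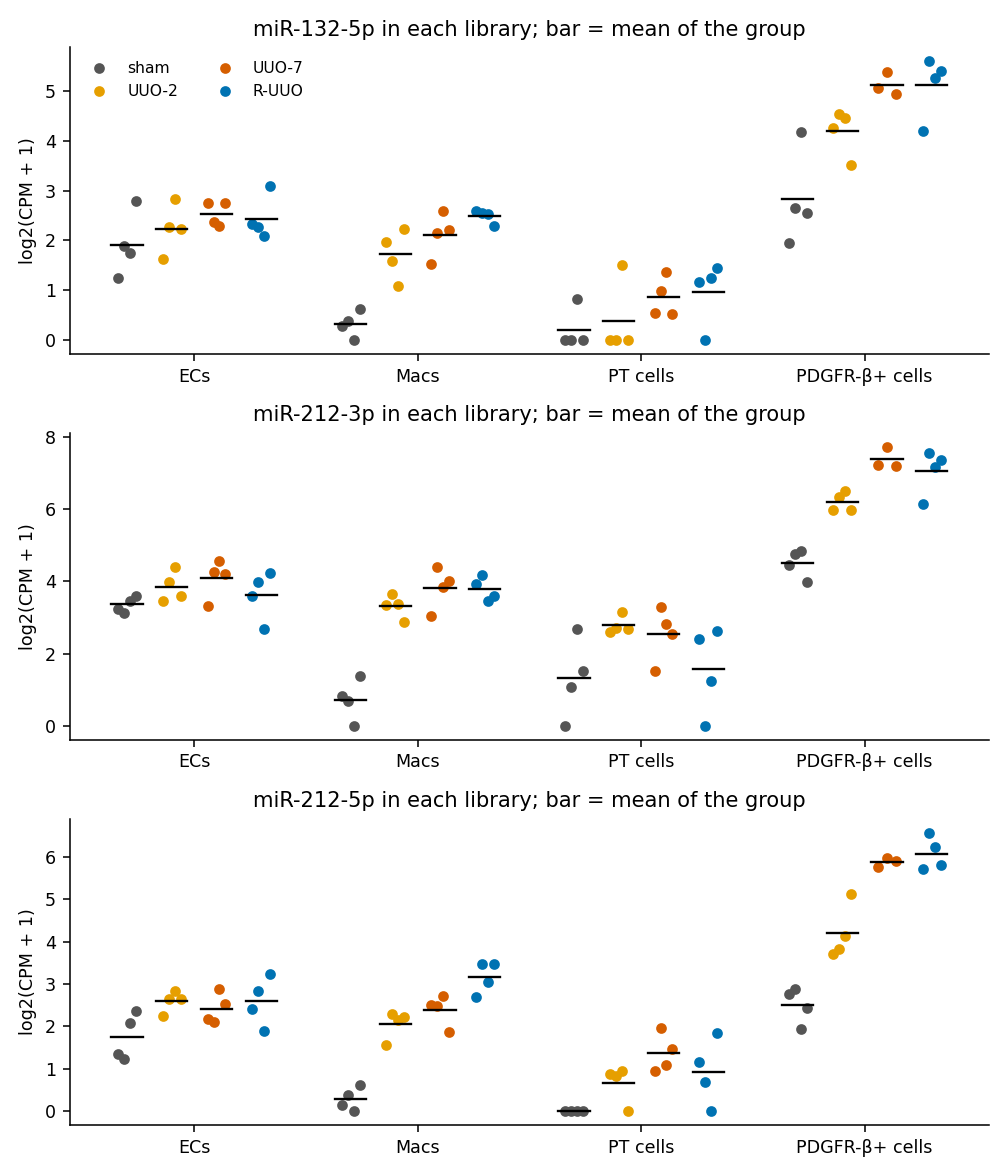
miR-132-5p, miR-212-3p and miR-212-5p as log2(CPM + 1) for each of the 63 libraries, by cell type and condition, with the bar at the mean. All 3 are highest in PDGFR-β+ cells, sham Macs lie at or near 0, and PT libraries include many with no count.

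**Figure D3:**
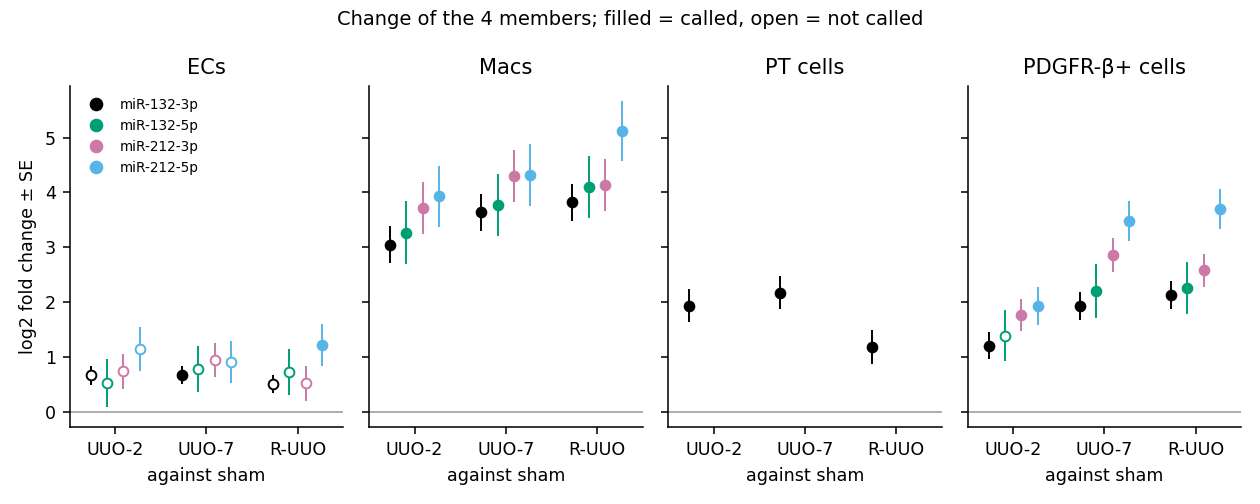
Log2 fold change against sham (± SE) of the 4 members in UUO-2, UUO-7 and R-UUO, 1 panel per cell type, with filled points for called changes and open points for the rest. Macs show 3.05 to 5.11, PDGFR-β+ cells 1.2 to 3.70, PT cells (miR-132-3p alone) 1.18 to 2.17 and ECs 0.50 to 1.22.

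The size of the change was compared between cell types by the difference of the changes in the fit over all libraries, called at an FDR below 0.05. These differences share the sham libraries of each type. ECs changed less than Macs for all 4 members, in UUO-2 (4 of 4 called, background 6.71%) and UUO-7 (4 of 4, background 18.2%). For miR-132-3p the difference was -2.34 ± 0.37 (FDR = 9.18e-06) and -2.92 ± 0.37 (FDR = 2.25e-08). The UUO-2 call of miR-132-5p was lost with no filter (FDR = 0.0748), and without sham replicate 2 or 4 or UUO-2 replicate 1, 2 or 4 (FDR = 0.0615 to 0.0773). ECs also changed less than PT cells for miR-132-3p, by -1.48 ± 0.40 in UUO-2 (FDR = 0.0165, 1 of 4, background 8.94%) and -1.71 ± 0.39 in UUO-7 (FDR = 0.000993, 1 of 4, background 16.2%). The UUO-2 value was not called with library size only (FDR = 0.109) or without UUO-2 replicate 1 or 4. Against PDGFR-β+ cells, the EC change was not distinguishable in UUO-2 (0 of 4, background 1.49%, miR-132-3p -0.67 ± 0.35, unadjusted p = 0.0599, none of the 4 under 0.05), and was smaller in UUO-7 for 3 of 4 members (background 27.9%), with miR-132-3p at -1.44 ± 0.36 (FDR = 0.00162) and miR-212-5p at -2.72 ± 0.57 (FDR = 0.000216).

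The Mac change exceeded that of PDGFR-β+ cells for miR-132-3p, by 1.67 ± 0.36 in UUO-2 (FDR = 0.000793, 1 of 4, background 8.94%) and 1.47 ± 0.38 in UUO-7 (FDR = 0.00261, 1 of 4, background 20.4%). miR-212-3p passed in UUO-2 with the mouse as a block (1.79, FDR = 0.0476) and not without it (FDR = 0.0677). Against PT cells, the Mac change was not called larger in UUO-2 (0.87 ± 0.41, FDR = 0.174, 0 of 4, background 11.2%, 2 of 4 at an unadjusted p under 0.05) and was in UUO-7 (1.2 ± 0.41, FDR = 0.0213, 2 of 4, background 27.6%). That last call was lost without sham replicate 1 (1.06) or 3 (0.96) or UUO-7 replicate 4 (1.21, FDR = 0.0622). PT cells and PDGFR-β+ cells were not called different for any member in UUO-2 (0 of 4, background 11.6%) or UUO-7 (0 of 4, background 27.6%). For members other than miR-132-3p, every difference that involves PT cells rests on few PT counts. The SE of miR-132-5p in UUO-7 against PDGFR-β+ cells was 2.80. In UUO-7 miR-212-3p, at -1.65 (FDR = 0.12), was called by the DESeq2 test (-1.96, FDR = 0.0151) and with library size only (-2.52, FDR = 0.0138). For miR-132-3p the PT minus PDGFR-β+ differences were 0.80 ± 0.40 in UUO-2 and 0.27 ± 0.40 in UUO-7, with 1 of 4 members at an unadjusted p under 0.05 at each time. The share of all loci at that unadjusted threshold was not counted for any of the differences of changes.

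The 3p arm of miR-132 took most of the cluster's counts in all 4 cell types. Pooled over conditions its share was 82.0% for PT cells, 78.8% for ECs, 71.1% for Macs and 70.7% for PDGFR-β+ cells, and in sham alone 77.1%, 81.3%, 80.7% and 79.9%. miR-212-3p followed, pooled over conditions, with 12.9%, 12.9%, 17.2% and 18.1% in the same order, and the 5p arms took the rest. Per count of its 5p partner there were 15.2 to 36.5 counts of miR-132-3p by cell type, and 2.46 to 4.44 counts of miR-212-3p. In PDGFR-β+ cells, the log2 ratio of both miR-132 arms to both miR-212 arms was 2.27, 2.54, 1.68 and 2.65 in sham, 1.89, 1.92, 1.54 and 1.61 in UUO-2, 1.39, 1.19 and 1.24 in UUO-7, and 1.72, 1.53, 1.63 and 1.56 in R-UUO. UUO-7 lay below all other libraries, so miR-212 made up more of the cluster at that time. Across the 4 conditions a permutation test gave p = 0.00472, and 0.0566 after Benjamini-Hochberg adjustment over the 12 ratio tests, which misses the threshold. Without sham replicate 3 the adjusted p was 0.0006, and it ranged from 0.0006 to 0.162 over the libraries left out. None of the 12 tests passed, and the unadjusted p was under 0.05 for 2 others, miR-212-3p to miR-212-5p in ECs (0.0337) and miR-132-3p to miR-132-5p in PT cells (0.0443). The PT ratio rests on 0 to 7 counts of miR-132-5p per library.

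**Figure D4:**
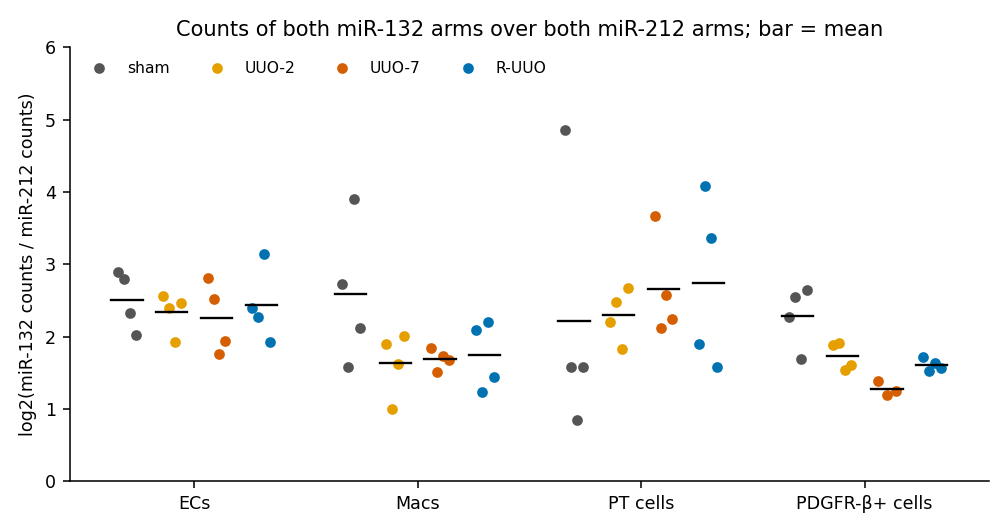
Log2 ratio of the counts of both miR-132 arms to those of both miR-212 arms (0.5 added to each) in each library, by cell type and condition, with the bar at the mean. In PDGFR-β+ cells UUO-7 (1.19 to 1.39) lies below sham (1.68 to 2.65), UUO-2 and R-UUO, while the groups overlap in ECs, Macs and PT cells.

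A list of 10 miRNAs known to respond to inflammatory stimuli, counted at up to 12 loci, gives a setting for these changes. Of the list, miR-9-5p alone has more than 1 locus, and each of its loci enters the counts and medians separately. In Macs, 5 of 12 loci were higher and 1 lower in UUO-2 against sham, where 18.4% of all loci were higher. In UUO-7, 7 were higher and 1 lower, where 26.3% of all loci were higher. The lower locus was miR-146a-5p both times, at -1.11 ± 0.18 and -1.19 ± 0.18. In Macs miR-155-5p was at 0.086 ± 0.29 in UUO-2 (FDR = 0.834) and at 1.29 ± 0.29 in UUO-7 (FDR = 0.00133). miR-147-3p, induced through Toll-like receptors, rose by 4.55 ± 0.29 in UUO-2 (FDR = 5.92e-09) and miR-222-3p by 1.72 ± 0.15 (FDR = 3.72e-07). The list's median change in Macs was 0.98 in UUO-2 and 0.95 in UUO-7, against 3.49 and 4.03 for the 4 members, and 0.15 and 0.22 for all loci tested. The members' medians rest on few sham counts, so their size is poorly determined. Sham Mac libraries had at most 3 counts each of miR-132-5p and miR-212-5p, and at most 9 of miR-212-3p. In PDGFR-β+ cells 4 of 11 loci of the list were higher in UUO-2 (5.66% of all loci) and 8 of 11 in UUO-7 (34%). In UUO-7 miR-155-5p, a miRNA of activated immune cells, was at 5.63 ± 0.53 (FDR = 6.63e-07) and miR-21a-3p at 5.40 ± 0.45 (FDR = 2.44e-07). The list's medians in PDGFR-β+ cells were 0.50 and 1.57, against 1.57 and 2.53 for the members. In ECs 4 and 7 of 12 loci were higher (1.49% and 6.18% of all loci) and in PT cells 5 and 7 of 10 (14.8% and 25.5%). Both PT counts include loci of miR-9-5p, all of its loci in UUO-7. In ECs the list's median was 0.52 and 1.00, and that of the members 0.70 and 0.84.

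Over all 63 libraries, the loci whose log2 CPM was most alike that of miR-132-3p were its own cluster. Pearson's r was 0.935 for miR-212-3p, 0.910 for miR-212-5p and 0.892 for miR-132-5p, which ranked 1, 2 and 3, ahead of all 667 loci outside the cluster. The next 5 were miR-214-5p (0.867), miR-100-5p (0.861), miR-181d-5p (0.843), and miR-199a-5p (0.842) and miR-199a-3p (0.840) at their chromosome 1 loci. The points share cell types, mice and depth, and differences between cell types make up much of each r. Within cell types the likeness varied. In Macs, r with miR-132-3p was 0.972 for miR-212-3p, 0.945 for miR-132-5p and 0.927 for miR-212-5p, against 0.704 for miR-214-5p, 0.453 for miR-100-5p and 0.846 for miR-181d-5p. In PT cells the members were at 0.541 for miR-212-3p, 0.343 for miR-132-5p and 0.663 for miR-212-5p, and miR-181d-5p (0.684), miR-214-5p (0.631) and miR-100-5p (0.598) lay in or above that range. In PDGFR-β+ cells r was 0.942 for miR-212-3p, 0.814 for miR-132-5p, 0.959 for miR-212-5p and 0.918 for miR-214-5p. There miR-199a-5p (0.910), miR-199a-3p (0.866) and miR-100-5p (0.840) also lay above miR-132-5p, and miR-181d-5p (0.800) lay below it. In ECs miR-214-5p was at -0.02, and the members at 0.676 for miR-212-3p, 0.284 for miR-132-5p and 0.549 for miR-212-5p.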

How the data were processed

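Small RNA was sequenced from sorted kidney cells of 16 mice, and the authors deposited raw counts per locus of a mature miRNA, neither normalized nor pooled. By their methods and processing notes, reads were checked with FastQC, trimmed with Trim Galore 0.4.1 and cutadapt 1.1, and aligned to GRCm38 and miRBase with ShortStack, which uses Bowtie. Counted strand, placement of multi-mapping reads and molecular identifiers are not given in the sources used here, so precision covers counting error and library spread only. The mice of a group were chosen by the authors from a larger set as those nearest the mean injury marker level, and they removed 1 PDGFR-β+ library of UUO-7 as an outlier, not analysed here. A further column of pooled counts was not used.

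Groups, mice and replicates came from the labels. Tests used edgeR 4.0.16 under R 4.3.3 (filterByExpr, TMM scaling, quasi-likelihood test, Benjamini-Hochberg adjustment over all loci tested), within each cell type for changes, and over all 63 libraries for cell types and differences of changes. Calls needed an FDR below 0.05 and, except for differences of changes, a fold above 1.5. Levels are CPM with TMM over all libraries, log2 values use a prior count of 2, and ratios add 0.5 to each count and were tested with 100000 permutations in Python 3.11.15. Where groups of libraries are said not to overlap, the share of all loci that separate in this way was not counted. Alternatives were library size only, DESeq2 size factors, the DESeq2 1.42.0 test, no filter, fits to 2 groups, a replicate block, a pseudocount of 2, and leaving out each replicate. On simulated counts, log2 changes of 2 were recovered for 97% of changed loci in Macs (UUO-7 against sham, 454 loci) and 78.4% in PDGFR-β+ cells (455 loci), for 71.4% between cell types (PT against PDGFR-β+ cells in sham, 578 loci) and for 66.7% as differences of changes (ECs minus Macs in UUO-7, 577 loci). The members and lists were chosen with earlier results of these data known. Named are the 4 members, at most 4 loci of the inflammation list per comparison, and the 5 loci outside the cluster most like miR-132-3p. The list loci named were among its largest changes, except miR-146a-5p and miR-155-5p in Macs. Replicate numbers mark a mouse, whose cell types are thus paired, although deviations from group means correlated weakly (median r = 0.0485 over 93 pairs). A number shared between conditions marks different mice.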

Additional observations from a re-analysis of the deposited data

Results flagged for a closer look

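In 4 of 59 groups of 4 libraries 1 library stood apart from the other 3. Chance alone gives this in about 1 of 20 for continuous values. Libraries with no count share the same value, so that rate does not hold for groups with few counts. All 4 flagged groups are PT groups with few counts. miR-132-5p was at 0.77 CPM in sham replicate 3 and at 1.85 CPM in UUO-2 replicate 3, where the other 3 libraries of each group had no count, and at 0 CPM in R-UUO replicate 2 against 1.24 to 1.73. miR-212-5p was at 0 CPM in UUO-2 replicate 4 against 0.795 to 0.927.

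The change from sham differed between 2 cell types in 17 of 48 tests of that difference. For ECs minus Macs the log2 differences in UUO-2 were -2.34 (miR-132-3p), -2.64 (miR-132-5p), -2.91 (miR-212-3p) and -2.68 (miR-212-5p), and in UUO-7 they were -2.92, -2.90, -3.28 and -3.28. For ECs minus PT cells miR-132-3p was at -1.48 in UUO-2 and -1.71 in UUO-7. For ECs minus PDGFR-β+ cells in UUO-7 the values were -1.44 (miR-132-3p), -2.06 (miR-212-3p) and -2.72 (miR-212-5p). For Macs minus PDGFR-β+ cells miR-132-3p was at 1.67 in UUO-2 and 1.47 in UUO-7. For Macs minus PT cells in UUO-7, miR-132-3p was at 1.2 and miR-212-3p at 2.87, the latter at 1.42 (FDR = 0.435) without sham replicate 3, whose PT library held 7 of the 10 sham counts.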

How the results depend on the processing

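Depth limits the PT values most, where 3 members failed the count filter, and the sham Macs, with 0 to 9 counts of each of these 3 members per library. The comparison of ECs with Macs depends on the scaling. With library size only, miR-132-3p was called lower in ECs in UUO-7 (-0.69) and R-UUO (-0.94) and was at -0.061 in UUO-2, not called. Also called lower were miR-212-5p (-1.43) and miR-212-3p (-1.22) in UUO-7, and miR-132-5p (-1.23), miR-212-5p (-1.80) and miR-212-3p (-1.33) in R-UUO. In 14 of 20 comparisons the median log2 change of all loci moved by over 0.1 between TMM and library size, and in 13 the share of higher calls moved by over 10 percentage points, for UUO-7 against sham in PDGFR-β+ cells from 162 higher and 68 lower to 221 and 35.

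For miR-132-3p, library size only ended the calls in UUO-7 against sham in ECs (0.52), R-UUO against sham in PT cells (0.70), ECs against PT cells in UUO-7 (0.58), Macs against PT cells in sham (-0.68) and the ECs minus PT cells difference in UUO-2 (-1.18, called at -1.48). It added calls for Macs against PT cells in UUO-2 (0.78) and UUO-7 (1.27), and for the Macs minus PT cells difference in UUO-2 (1.47). DESeq2 size factors added UUO-2 against sham in ECs (0.66) and Macs against PT cells in UUO-7 (0.78), and ended UUO-7 against UUO-2 in PDGFR-β+ cells (0.59). The DESeq2 test added UUO-2 against sham in ECs (0.66), R-UUO against UUO-7 in PT cells (-0.99), Macs against PT cells in UUO-7 (0.78) and their difference in UUO-2 (1.37). No filter ended Macs against PT cells in sham (-0.69) and their difference in UUO-7 (1.09). Fits to the compared groups alone added UUO-2 against sham in ECs (0.63) and UUO-7 against UUO-2 in Macs (0.59). A pseudocount of 2 took 2 ratio tests past the threshold, miR-132-3p to miR-132-5p in PT cells (83.5% of the variation between conditions, 50.2% with 0.5) and miR-132 to miR-212 arms in PDGFR-β+ cells (72.3%).

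With the replicate number as a block, which pairs different mice across conditions, the change of miR-132-3p from UUO-2 to UUO-7 in PDGFR-β+ cells was 0.50 and not called. With the mouse as a block across cell types no call on miR-132-3p changed, and 3 changed on other members, with their values given above. Leaving out 1 replicate at a time changed calls on miR-132-3p for UUO-2 (0.65 to 0.80), UUO-7 (0.54 to 0.85) and R-UUO (0.52 to 0.66) against sham in ECs, UUO-7 against UUO-2 in PDGFR-β+ cells (0.61 to 0.79), ECs against Macs in UUO-7 (0.39 to 0.81), Macs against PT cells in sham (-1.32 to -0.40) and UUO-7 (0.61 to 0.84), and the differences ECs minus PT cells in UUO-2 (-1.69 to -1.31) and Macs minus PT cells in UUO-2 (0.72 to 1.43) and UUO-7 (0.96 to 1.77). It also moved 3 ratio tests past the threshold, miR-132 to miR-212 arms (68.2% to 91.4%) and miR-212-3p to miR-212-5p (38.2% to 68.6%) in PDGFR-β+ cells and miR-132-3p to miR-132-5p in PT cells (45.5% to 69.6%). The cause of these shifts was not tested. The calls of all 4 members against sham in Macs held under every alternative run.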

Other observations

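Within the miR-212 hairpin, the mean log2 ratio of the 3p to the 5p arm was lowest after reversal in each of the cell types. This pattern was seen after the values were known, and in PT cells and sham Macs it rests on few counts. In ECs the mean log2 ratio of their counts was 1.97 ± 0.53 in sham (SD, n = 4) and 1.15 ± 0.18 in R-UUO. Macs had 1.12 ± 0.99 and 0.68 ± 0.52, PT cells 1.95 ± 1.62 and 0.62 ± 1.51, and PDGFR-β+ cells 2.19 ± 0.68 and 1.00 ± 0.47. Sham Macs held 18 counts of miR-212-3p and 5 of miR-212-5p in all. PT cells held 10 and 0 in sham, and 14 and 6 in R-UUO, so the 0.5 added to each count sets much of these ratios. The means at both obstruction times lay between 1.39 and 2.74. Across the 4 conditions no cell type passed the permutation test after adjustment, with the smallest adjusted p at 0.177 (ECs) and the largest at 0.597 (Macs).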
